A study of Mus musculus with 20 samples.

Results

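The genes described here encode proteins that prostate epithelium makes for export, or that sit in or serve its secretory route: Msmb, Apof, Mme, Ang, Pbsn, Sbp, Azgp1, Fcgbp, Agr2 and Pigr. They were followed through castration and testosterone replacement, with all probe sets taken whose platform annotation gave 1 of these 10 symbols and no other. That rule found 13 of the 12422 probe sets that are not Affymetrix controls, for 10 of 8251 genes with a symbol of their own (Fcgbp had 2, Agr2 had 3 and each other gene had 1). The 20 mice were of the C57/B6 strain and 10 to 12 weeks old, and the whole prostate of each was measured on 1 MG-U74A array. In 5 mice the operation was a sham (sham). Another 5 were collected 3 days after castration (3-day mice) and 5 at 14 days (14-day mice). The last 5 were castrated, carried a 15 mg testosterone pellet from day 14 and were collected 3 days later (the testosterone group). The labels name no transgene, deletion or pooling of mice, and give no separate litters or batches. The design asks how transcripts respond as androgen is removed and then returned.

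Prostate luminal cells secrete most of their protein into the seminal fluid, and in rodents many of these products depend on androgen acting through the androgen receptor, a transcription factor that hormone moves to the nucleus. Castration removes the testes as the source of testosterone, the luminal cells then shrink and many die, and androgen given afterwards lets the gland regrow. Secretory proteins are threaded into the endoplasmic reticulum, folded there with disulfide bonds, glycosylated and released at the apical surface. Mme is a membrane enzyme and Agr2 stays mostly within the endoplasmic reticulum, so not every gene of the group encodes a secreted product.

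Values are MAS5 signals, linear and scaled per array, so they compare 1 probe set between mice and not 1 gene with another. Array medians ran from 154 to 224. On 4 arrays (replicates 4 and 5 of the mice castrated 14 days, and replicates 2 and 5 of the testosterone group) the Gapdh control probe set for the 3′ end exceeded that for the 5′ end by a log2 of 1.82 to 4.54, against -0.53 to -0.08 on the other 16. Leaving these 4 arrays out changed a call or moved larger values by over 1.5 times for Sbp, Mme, Pigr, Azgp1 and Msmb, and the main such values are given both ways. The numbers in the array titles follow the groups, so treatment and any processing run that follows these numbers cannot be told apart. Luminal markers were present in every group, with the summed signal of 10 marker genes (such as Krt8, Krt18 and Cd24a) at 36693 to 46454 in sham mice, 45242 to 53000 after 3 days, 43615 to 64137 after 14 days and 41578 to 46355 in the testosterone group. Seminal vesicle secretion genes were also strong, with 6 genes summing to 49683 to 83238 in sham mice, so the dissected tissue held RNA of these genes as well. Apof is also made by liver, and 6 liver genes, including Alb and Apoa1, summed to at most 422 on any array and none passed the filter. In whole tissue, fewer luminal cells and less RNA per cell cannot be told apart.

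A probe set was tested where 5 or more of the 20 arrays gave a signal above 191, the median of the whole table, and 11 of the 13 did so (6911 in the whole series). Of these, Apof passed through its 10 sham and testosterone arrays alone. Changes are differences of log2(signal + 12.7) with their standard error (SE), tested with limma over all 6911 probe sets and called at a Benjamini-Hochberg adjusted p below 0.05. The added 12.7 makes the fold of a low signal smaller than it would otherwise be. After 3 days of castration 3 of the 11 were called lower (Msmb, Apof and Ang) and 0 higher, beside 4.46% of all tested probe sets called lower and 9.84% called higher. After 14 days 10 of the 11 were lower than sham, beside 24.3% of all, and 0 were higher, beside 28.6%. Against the 3-day mice, 8 were lower after 14 days, beside 20.4% of all, and 0 higher, beside 20.2%. Testosterone for 3 days raised 10 of the 11 above the 14-day mice, beside 18.2% of all, and lowered 0, beside 26.6%. Against sham the testosterone group had 2 lower (Pbsn and Azgp1), beside 29.5% of all, and 1 higher (Apof), beside 23.5% of all. Over the 10 genes the median log2 change against sham was -0.17 after 3 days, -2.62 after 14 days and -0.20 in the testosterone group, where the medians of all tested probe sets were 0.04, 0.01 and -0.09.

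**Figure D1:**
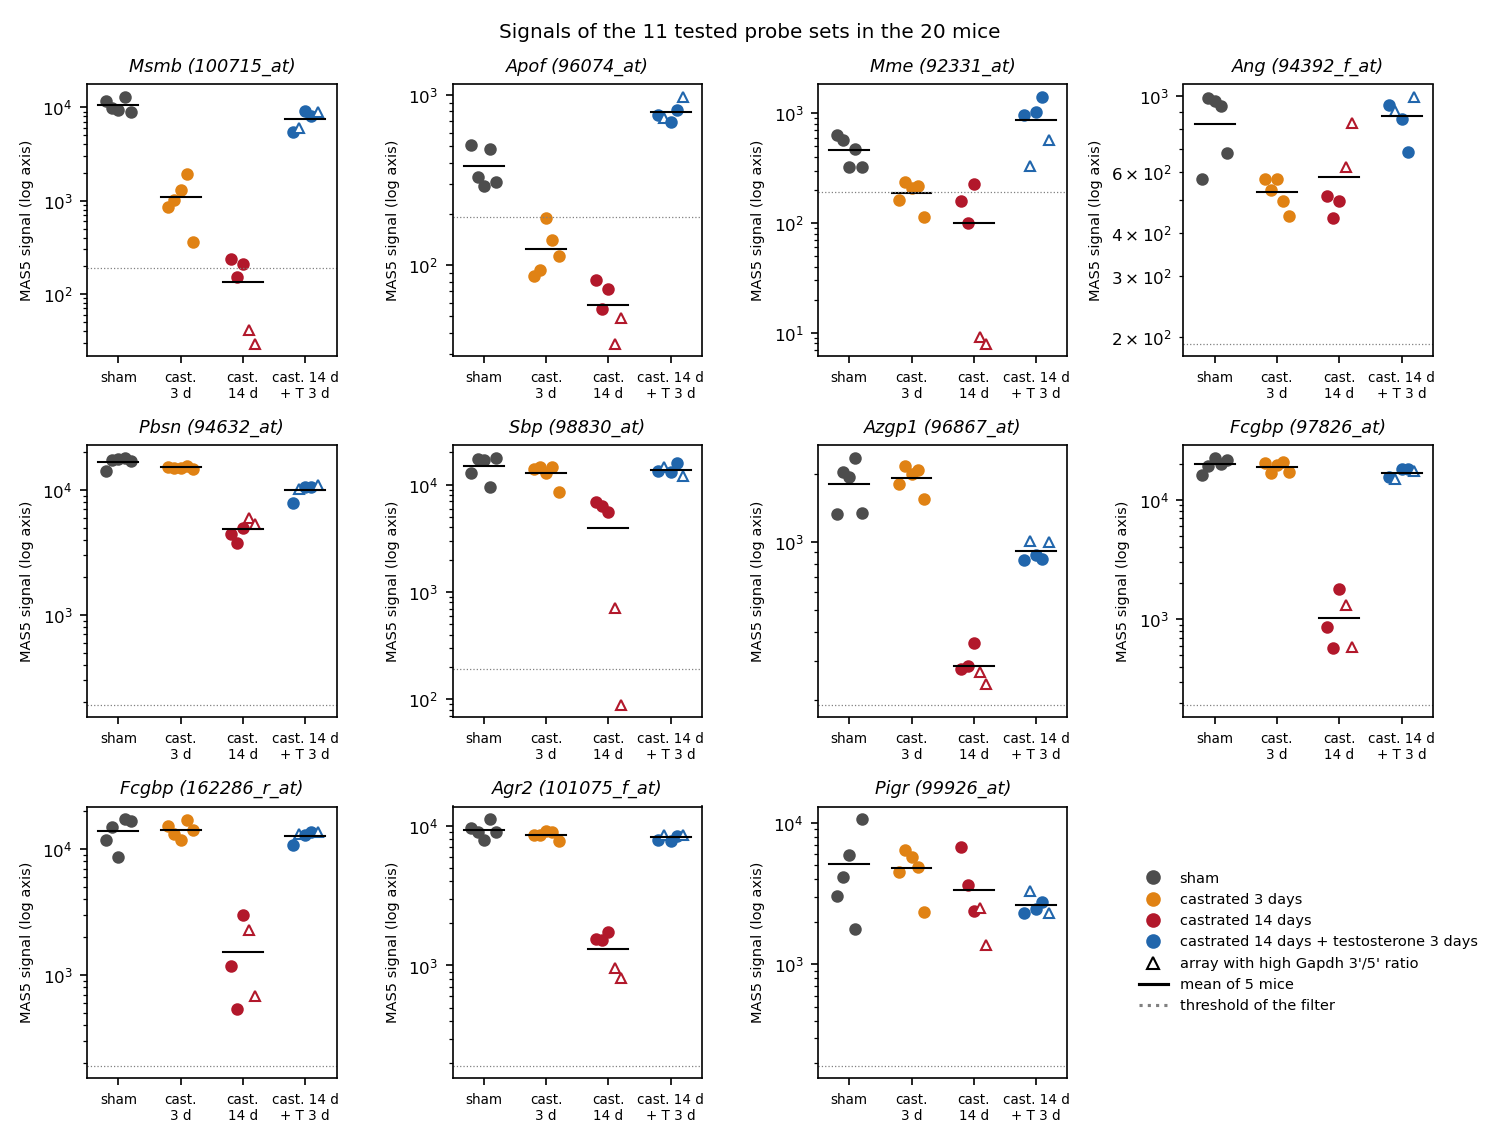
Signal of each tested probe set in every mouse (log axis, MAS5 units), with the mean of each group of 5 as a bar, the filter threshold of 191 as a dotted line and the 4 arrays of high Gapdh ratio as open triangles. Msmb, Apof and Mme are already low at 3 days, Pbsn, Sbp, Azgp1, Fcgbp and Agr2 drop between 3 and 14 days, and Pigr overlaps between all groups.

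Msmb encodes beta-microseminoprotein, a small secreted protein abundant in seminal plasma. Its signals were 11655, 9931, 9253, 12940.5 and 8835 in sham mice, 854, 1014, 1295, 1937 and 360.3 after 3 days, 236, 154, 211, 41.4 and 29.1 after 14 days and 5374, 6017, 9074, 8123 and 8897 in the testosterone group. Every mouse at 3 days lay below every sham mouse, every mouse at 14 days lay below every mouse at 3 days, and the highest testosterone mice reached the lower end of the sham range. The log2 change was -3.43 ± 0.45 after 3 days against sham, a 10.8-fold drop (adjusted p = 5.39e-05), and -6.49 ± 0.45 after 14 days against sham (adjusted p = 1.09e-09). From day 3 to day 14 of castration it fell by 3.06 (adjusted p = 3.88e-05). As a share of the sham mean, Msmb held 10.4% ± 5.53 (SD, n = 5) after 3 days, 1.28% ± 0.906 (SD, n = 5) after 14 days and 71.2% ± 16.1 (SD, n = 5) with testosterone. Replicates 4 and 5 at 14 days, both of high Gapdh ratio, were the lowest, and without the 4 such arrays the log2 change from sham at 14 days was -5.63.

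Apof encodes apolipoprotein F, a protein known in plasma as an inhibitor of lipid transfer between lipoproteins. Its signals were 504, 330.3, 292, 482 and 309 in sham mice, 86.7, 93.8, 189, 139 and 113 after 3 days, 81.7, 55.2, 72.4, 34.4 and 48.7 after 14 days and 757, 732, 694, 808 and 972 in the testosterone group. The sham, 3-day and 14-day ranges did not overlap, and the lowest testosterone mouse was above the highest sham mouse. Apof fell by 1.54 after 3 days on the log2 scale against sham (2.92-fold, adjusted p = 7.11e-05) and was lower again at 14 than at 3 days (log2 change -0.94 ± 0.21, adjusted p = 0.0017). Testosterone raised it by 3.53 ± 0.21 over 14 days of castration (adjusted p = 1.93e-10). It was the single gene of the 10 called above sham in the testosterone group, at 207% ± 28.3 (SD, n = 5) of the sham mean (log2 change 1.05 ± 0.21, adjusted p = 0.000384).

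Mme encodes neprilysin (CD10), a zinc metalloendopeptidase of the cell surface that cleaves small peptides. Its signals were 633, 568, 325, 468 and 322 in sham mice, 162, 237, 209, 216 and 114 after 3 days, 157, 100.1, 228, 9.20 and 7.90 after 14 days and 957, 331, 1034, 1412 and 566 in the testosterone group. All mice at 3 days lay below all sham mice, yet the change of -1.23 ± 0.56 was not called (adjusted p = 0.159). Among the 14-day mice replicates 4 and 5, both of high Gapdh ratio, lay far below the rest. Leaving out the 4 arrays of high Gapdh ratio gave the same change an adjusted p of 0.0025, and a fit of the sham and 3-day mice alone gave 0.00583. At 14 days Mme was lower than sham by a called log2 change of -2.65 ± 0.56 (adjusted p = 0.000621), or -1.46 without those arrays, where its level at 14 days differed from that at 3 days by -0.23 (adjusted p = 0.556), against -1.42 with all arrays (adjusted p = 0.0515). The testosterone group averaged 186% ± 91.0 (SD, n = 5) of the sham mean, a log2 change of 0.76 ± 0.56 that was not called (adjusted p = 0.262). Without the 4 arrays it was 245% of the sham mean and called higher (1.30, adjusted p = 0.00145).

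Ang encodes angiogenin, a secreted ribonuclease with antimicrobial and angiogenic activity. Its probe set carries the suffix of those that share probes within a gene family, and the array has other probe sets for Ang paralogs, so the signal may include related transcripts. The signals were 575, 986, 968, 933 and 685 in sham mice, 574, 535, 575, 494 and 447 after 3 days, 514, 443, 496, 620.2 and 832 after 14 days and 939, 901, 856, 689.5 and 994 in the testosterone group. The highest mouse at 3 days (574.9) lay just below the lowest sham mouse (575.1), and the 14-day mice spread into the sham range. Ang was lower than sham after 3 days by a log2 change of -0.62 ± 0.17 (adjusted p = 0.0167) and after 14 days by -0.51 ± 0.17 (adjusted p = 0.0156), with no called difference between 14 and 3 days (0.11 ± 0.17, 95% interval -0.24 to 0.46). The call at 14 days was lost without replicate 2 of that group (adjusted p = 0.0503) and in a fit of those 2 groups alone (adjusted p = 0.0521). The testosterone group stood at 106% ± 14.0 (SD, n = 5) of the sham mean.

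Pbsn encodes probasin, a lipocalin-family protein whose promoter is widely used to drive transgenes in mouse prostate epithelium. The 250 bases before its RefSeq start (GRCm38.p6, minus strand, chrX:77853501-77853750) are shown 5′ to 3′ because probasin is the standard androgen-regulated gene of this tissue, with capitals marking AGAACA, the letters of a hormone receptor half-site.
Pbsn: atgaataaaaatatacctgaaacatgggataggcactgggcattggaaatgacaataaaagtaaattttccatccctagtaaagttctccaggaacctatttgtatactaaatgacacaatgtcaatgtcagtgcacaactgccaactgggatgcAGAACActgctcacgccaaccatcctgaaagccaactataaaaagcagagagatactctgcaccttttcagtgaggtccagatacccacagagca
Signals of Pbsn were 14179.6, 17332, 17772, 18101 and 17137 in sham mice, 15349, 15113, 15041, 15595 and 14798 after 3 days, 4413, 3786, 4930.4, 5992 and 5396 after 14 days and 7814, 10106, 10664, 10509.8 and 10969 in the testosterone group. The 3-day mice lay within the sham range, the 14-day mice far below it, and the testosterone mice between the 14-day and the sham mice with no overlap on either side. After 3 days the change from sham was -0.15 ± 0.12 (95% interval -0.39 to 0.09, adjusted p = 0.441), and it was called lower only when the mean of the luminal markers was subtracted on each array (-0.36, adjusted p = 0.0482). After 14 days Pbsn fell by 1.80 (adjusted p = 4.66e-10) against sham. Testosterone raised it by 1.04 ± 0.12 over 14 days of castration (adjusted p = 7.31e-07), to 59.2% ± 7.50 (SD, n = 5) of the sham mean, still lower than sham by a log2 change of -0.76 ± 0.12 (adjusted p = 2.76e-05).

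Sbp encodes the spermine-binding protein, a secreted glycoprotein of the mouse ventral prostate that binds polyamines. Its signals were 12779.6, 17202, 16895, 9434 and 17809 in sham mice, 14070.0, 14629, 12964, 14485 and 8478 after 3 days, 6956, 6348, 5543, 717 and 88.7 after 14 days and 13509.8, 14652, 13049, 15829 and 12073 in the testosterone group. Replicates 1 to 3 of the 14-day mice kept 5543 to 6956, whereas replicates 4 and 5 of that group, both of high Gapdh ratio, had 717 and 88.7. The log2 change against sham was -0.19 ± 0.79 after 3 days (adjusted p = 0.909) and -3.01 ± 0.79 after 14 days (adjusted p = 0.00345). With the 4 arrays of high Gapdh ratio left out, the change after 14 days was -1.20 (adjusted p = 0.000206), so the size of the fall rests on those arrays and the call does not. The 14-day mean was 26.5% of the sham mean with all arrays and 42.4% without them. Likewise the change between 14 and 3 days was -2.83 with all arrays and -1.02 without them, and that of the testosterone group over the 14-day mice was 2.95 and 1.17, all of them called. Without replicate 5 of the 14-day group alone the change after 14 days against sham was -1.98. That mouse also had the lowest seminal vesicle sum of its group (3185), while replicate 4 had the highest (32167). With testosterone Sbp returned to 93.2% ± 9.82 (SD, n = 5) of the sham mean, with a change from sham of -0.07 ± 0.79 (adjusted p = 0.949).

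Azgp1 encodes zinc-alpha-2-glycoprotein, a secreted protein with the fold of MHC class I molecules that is known in human prostate as a seminal plasma product. Its signals were 1334, 2036, 1932, 2353 and 1344 in sham mice, 1803, 2176, 2001, 2084 and 1543 after 3 days, 276, 284, 359, 266 and 238 after 14 days and 837, 1007, 878, 840.5 and 999 in the testosterone group. The 3-day mice sat inside the sham range, and the testosterone mice lay in the gap between the 14-day and the sham mice without touching either. The change after 3 days was 0.12 ± 0.15 (adjusted p = 0.66), and after 14 days Azgp1 fell by 2.58 (adjusted p = 1.14e-10) against sham. Testosterone raised it by 1.65 ± 0.15 over the 14-day mice (adjusted p = 5.31e-08) and left it at 50.7% ± 4.68 (SD, n = 5) of the sham mean, lower than sham by a log2 change of -0.94 ± 0.15 (adjusted p = 4.45e-05).

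Fcgbp encodes a large mucin-like protein first known for binding the Fc part of immunoglobulin G, and between 3 and 14 days it fell by 4.32 on the log2 scale. Its signals were 16002, 18962, 22391, 19897 and 21587 in sham mice, 20109.6, 16592, 19372, 20665 and 17114 after 3 days, 862, 574, 1779.8, 1309.5 and 584 after 14 days and 15485, 14994, 18039, 18075 and 17496 in the testosterone group. Sham and 3-day mice could not be separated, and the highest 14-day mouse lay far below the lowest of both. The log2 change was -0.07 ± 0.23 after 3 days (adjusted p = 0.882) and -4.39 ± 0.23 after 14 days (adjusted p = 2.96e-11), which left 5.17% ± 2.62 (SD, n = 5) of the sham mean. With testosterone it stood at 85.1% ± 7.43 (SD, n = 5) of the sham mean (change from sham -0.23 ± 0.23, adjusted p = 0.406). The other Fcgbp probe set moved the same way, by -3.43 ± 0.34 after 14 days and -0.08 ± 0.34 in the testosterone group against sham (adjusted p = 1.17e-07 and 0.859).

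Agr2 encodes a protein disulfide isomerase of the endoplasmic reticulum that is needed to make mucin in mouse intestine. The tested probe set had signals of 9631, 9017, 7850.0, 11198 and 9078 in sham mice, 8572, 8609, 9229, 9079.6 and 7760.4 after 3 days, 1544, 1534, 1739, 958 and 820.0 after 14 days and 7902, 8640.3, 7765, 8436 and 8569 in the testosterone group. The 14-day mice stood apart from all others, and the other 3 groups overlapped. Agr2 changed by -0.11 ± 0.16 after 3 days (adjusted p = 0.724), fell by 2.86 after 14 days (adjusted p = 9.49e-11) and stood at 88.3% ± 4.29 (SD, n = 5) of the sham mean with testosterone (change from sham -0.17 ± 0.16, adjusted p = 0.381). The tested probe set carries the same suffix as that of Ang, so its signal may include related transcripts. The other 2 Agr2 probe sets never passed the threshold on any array and averaged 49.2 and 3.19 over the 20 arrays. They were not tested and gave no second reading of the change.

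Pigr encodes the polymeric immunoglobulin receptor, which carries IgA across epithelium and is shed as secretory component. Its signals were 3024, 4172, 5914, 1783 and 10687 in sham mice, 4507, 6422, 5757, 4893 and 2342 after 3 days, 6800.4, 3618, 2369, 2492 and 1375 after 14 days and 2302, 3289, 2457, 2753 and 2317 in the testosterone group. The sham mice alone covered the range from 1783 to 10687, and every other group overlapped them. No change was called, and the change after 14 days against sham was -0.56 ± 0.41 (95% interval -1.43 to 0.30, adjusted p = 0.262), an interval wide enough to hold both a fall like that of Ang and no change. Without sham replicate 4, the lowest of its group, the testosterone group was called lower than sham (-1.03, adjusted p = 0.0377), against -0.71 with it (adjusted p = 0.154). The change after 14 days against sham was -0.14 (adjusted p = 0.823) once the 4 arrays of high Gapdh ratio were left out.

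**Figure D2:**
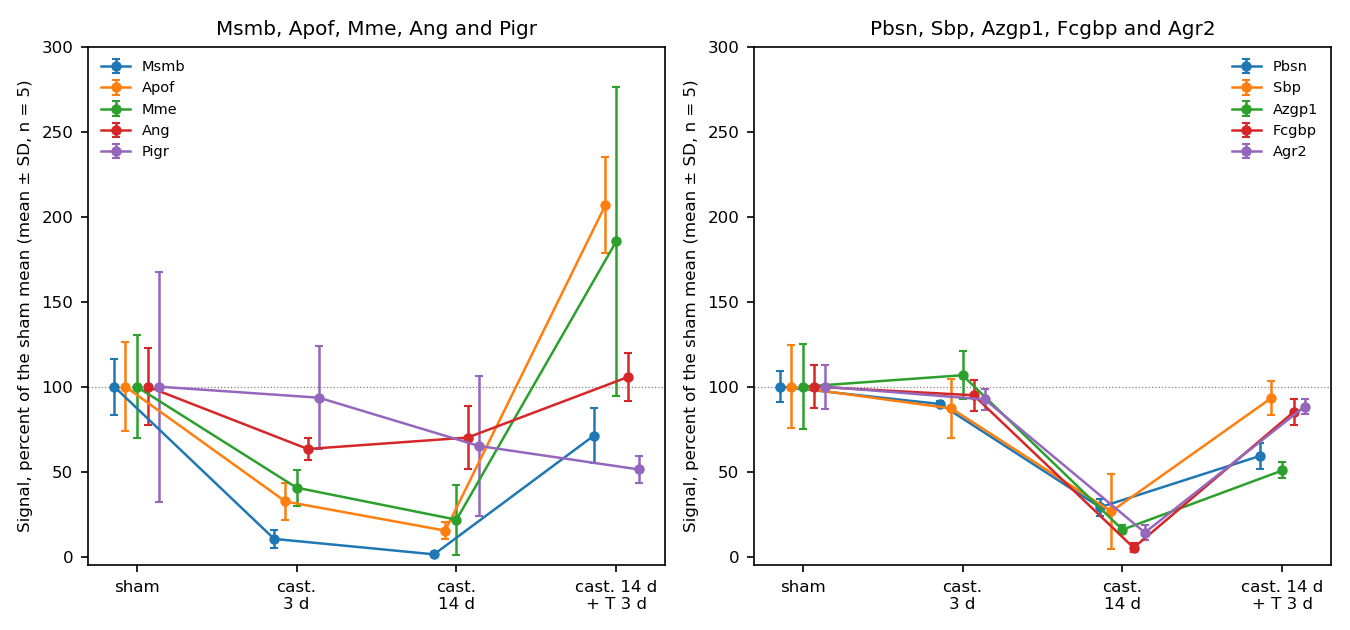
Mean signal of each gene as percent of its sham mean (± SD over 5 mice), by group, with lines joining group means of different mice. On the left, Msmb, Apof and Mme are down to 10.4% to 40.5% at 3 days, and on the right 5 genes hold 87.2% to 107% at 3 days and 5.17% to 29.0% at 14 days (Sbp, at 26.5%, is at 42.4% if the 4 arrays with a high Gapdh ratio are left out).

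The speed of loss was set out by asking whether the 3-day mice lay nearer to sham or to the 14-day mice on the log2 scale, for the 10 probe sets called lower at 14 days. Those called nearer to sham were 5, namely Azgp1, Agr2, Pbsn and both probe sets of Fcgbp (adjusted p = 1.6e-06, 7.54e-06, 0.000117, 1.6e-06 and 0.000987), beside 14.2% of the 1679 probe sets called lower at 14 days. None was called nearer to the 14-day mice, beside 1.37% of those 1679. Msmb lay close to the midpoint (-0.18 ± 0.39, adjusted p = 0.800), as did Apof (-0.30 ± 0.18, adjusted p = 0.307) and Mme (0.09 ± 0.49, adjusted p = 0.924). Without the 4 arrays of high Gapdh ratio Mme lay at -0.50 (adjusted p = 0.148) and Msmb at -0.61 (adjusted p = 0.182). Sbp (1.32 ± 0.68, adjusted p = 0.234, or 0.42 without those arrays) and Ang (-0.37 ± 0.15, adjusted p = 0.117) were not called either. Signals of Fcgbp were close to the top of their arrays, at 82.6% to 98.9% of the highest signal of the array in the 3-day mice and 74.4% to 90.3% in sham mice (60.2% to 80.8% and 35.0% to 72.9% for its other probe set), and those of Pbsn were at 71.1% to 79.1% and 60.0% to 76.2%. Whether a ceiling of the signal hides part of a change at 3 days was not tested. A fall already called at 3 days was seen for 15.1% of those 1679 probe sets.

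Differences between genes within the same arrays were compared with an exact two-sided permutation test over mice, a comparison chosen after the values were seen, for all 45 pairs of the 10 genes. In the change from sham to 3 days, Msmb fell more than each of the other 9 genes, with an exact p of 0.00794, the smallest that 5 mice against 5 allow, and 0.017 after Benjamini-Hochberg adjustment over the 45 pairs. Its log2 change differed from that of Pbsn by -3.28 ± 0.41 (Msmb minus Pbsn). Apof stood above Msmb by 1.89 ± 0.37 in the same measure, and Mme by 2.20 ± 0.30. Apof fell more than Pbsn by 1.39 ± 0.27 (exact p = 0.00794, adjusted 0.017). Apof and Mme differed by -0.31 ± 0.26, which was not called (exact p = 0.286, adjusted 0.4). In all, 23 of the 45 pairs differed at 3 days and 25 at 14 days. The 14-day count includes the arrays of high Gapdh ratio, and the pair tests were not repeated without them.

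Recovery was read from the testosterone group against the same midpoint. Of the 10 probe sets called lower at 14 days, 7 lay nearer to sham, beside 16.9% of the 1679, and none lay nearer to the 14-day mice, beside 33.2%. The 7 were Msmb (2.74 ± 0.39 above the midpoint), Apof (2.29 ± 0.18), Mme (2.09 ± 0.49), both probe sets of Fcgbp (1.97 ± 0.20 and 1.63 ± 0.29), Agr2 (1.26 ± 0.14) and Azgp1 (0.35 ± 0.13, adjusted p = 0.0308). The call for Azgp1 was lost in 6 of the 31 alternative settings, with an adjusted p of 0.327 without the arrays of high Gapdh ratio. Pbsn lay near the midpoint (0.14 ± 0.10, adjusted p = 0.268), and neither Sbp (1.44 ± 0.68, adjusted p = 0.0897) nor Ang (0.35 ± 0.15, adjusted p = 0.0522) was called. Ang was called nearer to sham in 9 of the 31 settings and Sbp in 4, 1 of them being the fit without the arrays of high Gapdh ratio (0.57, adjusted p = 0.0302). Centring each array on its median moved the median log2 change of all tested probe sets from -0.10 to 0.09 in the testosterone group against the 14-day mice and turned the split of all calls from 1259 higher and 1840 lower to 1827 higher and 1024 lower, and 10 of the 11 probe sets were again called higher and 0 lower. Under this centring 8 and not 7 lay nearer to sham than to the 14-day mice, and 9 and not 8 were lower after 14 than after 3 days of castration. Among all 1679 probe sets, 35.8% were raised by testosterone over the 14-day mice, 63.2% were still called lower than sham and 5.6% higher.

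The degree of return differed between genes within the same mice. Apof exceeded Pbsn by 1.81 ± 0.23 in the change from sham (exact p = 0.00794, adjusted over 45 pairs 0.0325), and Fcgbp exceeded Pbsn by 0.53 ± 0.08 (the same p-values). Agr2 exceeded Azgp1 by 0.77 ± 0.17 (exact p = 0.00794, adjusted 0.0325), and Pbsn was below Sbp by a difference of -0.69 ± 0.22 (exact p = 0.00794, adjusted 0.0325). Pbsn and Azgp1, both called below sham, differed from each other by -0.18 ± 0.15 (Azgp1 minus Pbsn), which was not called (exact p = 0.262, adjusted 0.347). Across the pairs 17 of 45 differed in the change from sham to the testosterone group, again with the arrays of high Gapdh ratio included. Msmb averaged 71.2% ± 16.1 of the sham mean, and its change from sham (-0.51, 95% interval -1.44 to 0.43) was called lower in 1 setting, a fit of those 2 groups alone (adjusted p = 0.0365).

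**Figure D3:**
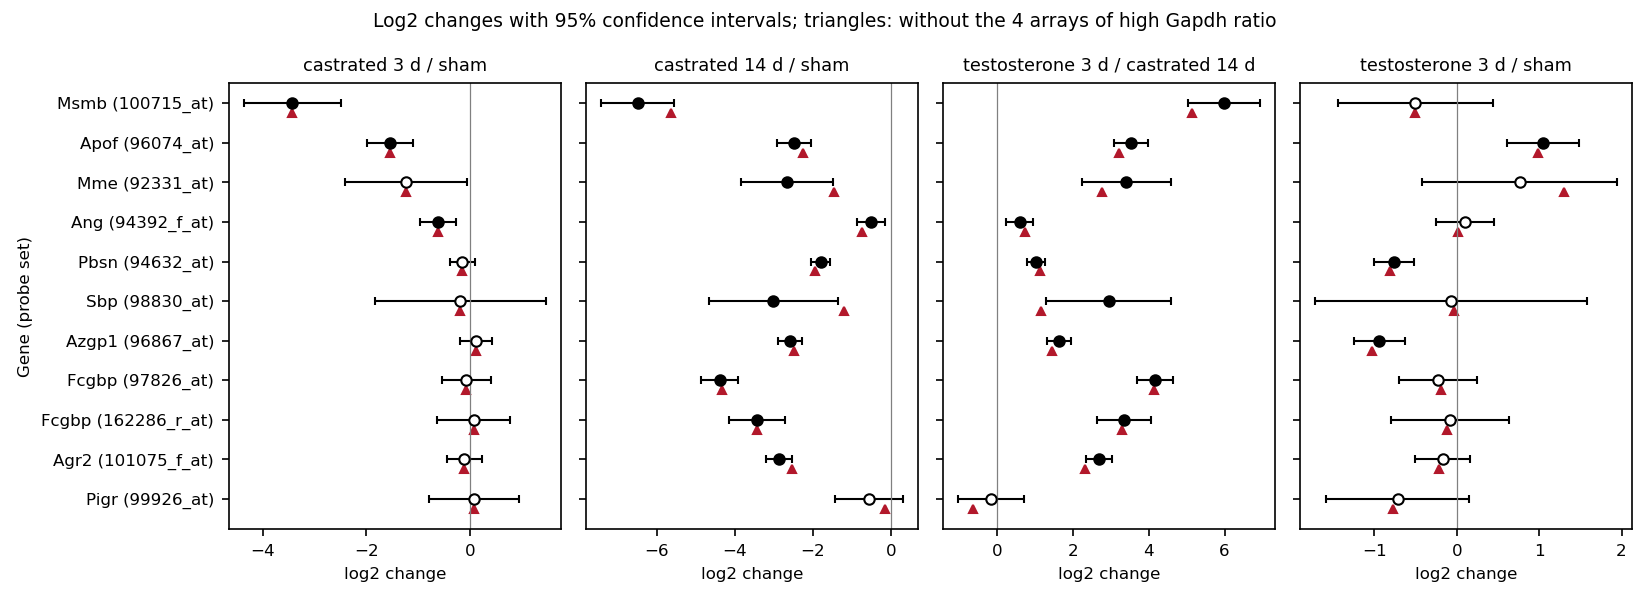
Log2 change of each tested probe set in 4 comparisons (points, with 95% confidence intervals; filled where called at an adjusted p below 0.05), with red triangles for the value without the 4 arrays of high Gapdh ratio. Sbp and Mme shift most without those arrays at 14 days (Sbp -3.01 and -1.20, Mme -2.65 and -1.46), and Apof lies above 0 and Pbsn and Azgp1 below 0 in the testosterone group against sham.

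**Figure D4:**
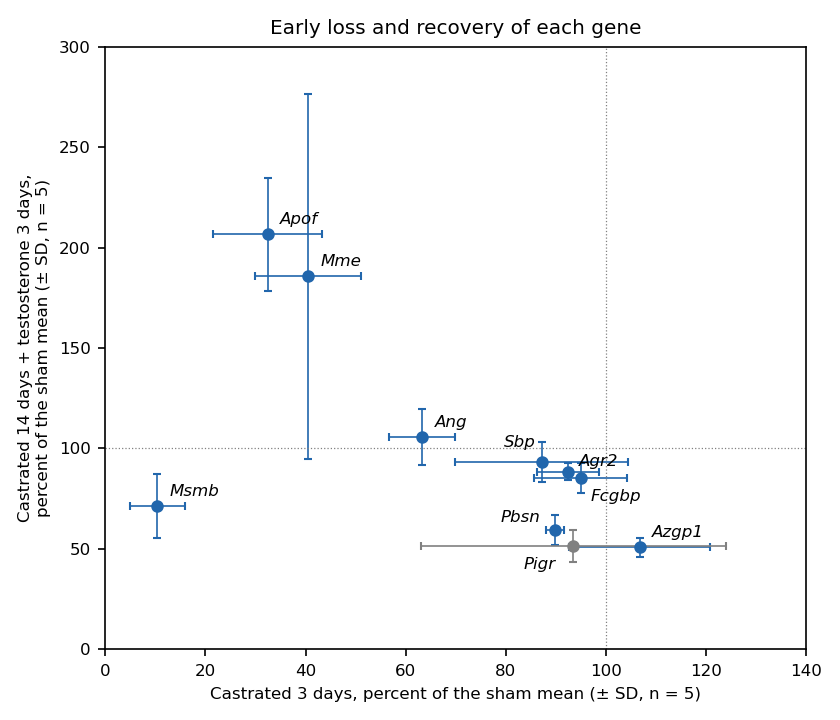
Percent of the sham mean left after 3 days of castration (x axis) against percent of the sham mean reached after testosterone (y axis), mean ± SD of 5 mice for each gene, with Pigr in grey. Msmb is at 10.4% at 3 days and 71.2% with testosterone, Apof and Mme have means of 32.4% and 40.5% at 3 days and 207% and 186% with testosterone (neither difference of Mme from sham was called), Fcgbp, Agr2 and Sbp hold at least 87.2% and reach 85.1% to 93.2%, and Pbsn and Azgp1 hold 89.8% and 107% and reach 59.2% and 50.7%.

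Counts of groups whose values did not overlap need no model. After 3 days 4 of the 11 probe sets lay wholly below sham (Msmb, Apof, Mme and Ang), beside 4.54% of all tested. After 14 days 9 lay wholly below sham, beside 15.7%, and 9 of the 11 lay wholly higher in the testosterone group than in the 14-day mice, beside 12.5%. In the testosterone group 2 lay wholly below sham, beside 16%, and 1 wholly above, beside 15.4%.

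Other genes whose log2 values over the 20 arrays ran most like those of each member were found by Pearson correlation, which here describes 4 group means and shared arrays more than 20 independent points. Man1a, a mannosidase that trims N-glycans in the Golgi, was among the 3 closest for Pbsn (r = 0.971), Fcgbp (0.970), Azgp1 (0.962) and Agr2 (0.959). The others were Mcoln2 (0.969) and Dnajc10 (0.950) for Pbsn, and Gnmt (0.959) and Mt2 (0.957) for Fcgbp. For Azgp1 they were Mcoln2 (0.964) and Tob1 (0.956), and for Agr2 Gnmt (0.976) and Mt2 (0.970), both closer than Man1a. Msmb ran with Mthfd2, a mitochondrial folate enzyme (r = 0.977), Nans, which makes sialic acid (0.957), and Manf, a protein of the endoplasmic reticulum stress response (0.956). Apof ran with Ssr3, a subunit of the translocon-associated complex (r = 0.964), H2-Q10 (0.958) and Tmem97 (0.953). Mme ran with Oit1 (0.922), Gadd45g (0.921) and Rpn1, a subunit of the N-glycosylation enzyme (0.917). Sbp ran with Syngr2 (0.874), with Svs2, a seminal vesicle secretion gene (0.872), and with Tram1 (0.843). The closest to Ang were Hint1 (0.843), Stx3 (0.836) and Defb1 (0.822), and to Pigr Gne (0.789), Ifnab (0.762) and Wwc1 (0.746).

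Folding factors of the secretory pathway, which serve all exported proteins, were listed as the machinery behind these genes. Of 20 tested, 0 were called higher and 3 lower after 3 days (Herpud1 -0.79, Dnajc3 -0.75 and Manf -0.65), with a median log2 change of -0.38. Of all tested probe sets 9.84% were called higher and 4.46% lower. Without the 4 arrays of high Gapdh ratio 7 of the 20 were lower, beside 6.61% of all. After 14 days 16 of the 20 were lower and 0 higher than sham (median -1.20), beside 24.3% and 28.6% of all. Among the lower were Pdia4 (-3.00), Pdia6 (-2.39), Creld2 (-2.34), Dnajc3 (-2.20), Manf (-1.75) and P4hb (-1.66). Testosterone raised 11 and lowered 2 against the 14-day mice (median 0.84), beside 18.2% of all tested probe sets raised and 26.6% lowered. Against sham 1 was higher and 10 lower (median -0.47), beside 23.5% and 29.5% of all, or 6 lower with each array centred on its median. Manf averaged 5412 ± 667 in the testosterone group, against 1694 ± 238 in the 14-day mice (SD, n = 5 each; log2 change 1.67 ± 0.15, adjusted p = 5.55e-08).

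A further list held 9 genes for transcription factors and androgen-regulated proteins of luminal cells. After 14 days 6 were lower and 1 higher than in sham, beside 24.3% and 28.6% of all tested probe sets. Among the lower ones were the androgen target Fkbp5 (-1.22), the transcription factors Spdef (-1.49), Gata2 (-0.86) and Hoxb13 (-0.83) and the serine protease Tmprss2 (-0.67), and the higher one was Klf5 (0.80). After 3 days Fkbp5 was the 1 gene called lower (-0.90), beside 4.46% of all. Without the 4 arrays of high Gapdh ratio 3 were called lower, beside 6.61%. In the testosterone group 2 of the 9 were higher than sham and 5 lower, beside 23.5% and 29.5% of all tested, or 2 lower with each array centred on its median. The higher ones were Fkbp5 (0.93 ± 0.15, adjusted p = 3.89e-05) and the polyamine enzyme Odc1 (0.69 ± 0.13, adjusted p = 0.000287). The lower ones were Spdef, which drives secretory differentiation in several mouse epithelia (-0.87 ± 0.21, adjusted p = 0.0016), Tmprss2 (-0.60), Gata2 (-0.49), Creb3l1 (-0.40) and Foxa1 (-0.30), the last 3 of which were not called under that centring.

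Not all secreted products of this epithelium were lower after 14 days, as 9 of the 10 genes were. Of 32 other genes for secreted products of prostate and male tract on the array, 11 passed the filter. After 14 days 7 were higher and 3 lower than sham (median 0.50), beside 28.6% and 24.3% of all tested probe sets. The count of lower genes was thus near the share of all. Clu, the chaperone clusterin known to rise in the regressing prostate, was higher (1.30 ± 0.17, adjusted p = 3.07e-06), as were Lgals3bp (1.86), Lcn2 (1.80), Wfdc2 (1.68) and Ltf (1.35). Egf, the epidermal growth factor precursor, was lower (-2.60 ± 0.28, adjusted p = 3.32e-07), as were Mmp7 (-0.89) and Defb1 (-0.43). In the testosterone group Egf still averaged 1041 ± 185, against 6658 ± 1221 in sham mice (SD, n = 5 each; log2 change -2.66 ± 0.28, adjusted p = 4.03e-07).

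Markers of other cells moved over the same comparisons. Of 10 luminal genes, 3 were higher and 0 lower after 3 days, and 4 were higher and 0 lower after 14 days (Krt8 0.96 and Krt19 0.88 among them), beside 9.84% of all tested probe sets called higher after 3 days and 28.6% after 14 days. With arrays centred on their medians or quantile normalized, 1 of the 10 was called lower after 14 days. All 7 tested macrophage genes were higher after 14 days, beside 28.6% of all tested probe sets. Without the 4 arrays of high Gapdh ratio 6 of them were tested, and all 6 were higher, beside 25.5%. As 5 arrays are enough to pass the filter, a gene can pass through the 14-day mice alone, which favours such a call. The summed signal of 9 macrophage genes was 9041 to 16578 in the 14-day mice and 1931 to 2445 in sham mice. All 6 seminal vesicle genes were lower after 14 days, beside 24.3% of all tested probe sets. Their sums were 3185 to 32167 in the 14-day mice and 49683 to 83238 in sham mice. With testosterone 3 of them rose over the 14-day mice, beside 18.2% of all. Of 8 fibroblast genes 6 were higher and 0 lower after 14 days than in sham (median 0.77). Of 8 smooth muscle genes 1 was higher and 5 lower (median -0.52). The shares of all tested probe sets were 28.6% higher and 24.3% lower. Of 11 tested skeletal muscle genes 7 were higher after 14 than after 3 days (median 2.62), beside 20.2% of all. After 14 days 0 were called against sham, or 7 higher without the 4 arrays of high Gapdh ratio, beside 25.5%. Sums (13 genes) were 3670 to 33127 after 14 days, 2329 to 5513 after 3 days and 4256 to 21610 in sham mice. In the testosterone group against the 14-day mice, where most members rose, 5 of 10 luminal genes and 7 of 7 macrophage genes were lower. In the same comparison 6 of 8 smooth muscle genes were higher. Of all tested probe sets 26.6% were lower and 18.2% higher. The luminal count depended on the processing. It was 8 under quantile normalization (beside 21.4% of all lower) and 3 with arrays centred on their medians (beside 14.8%). Without the 4 arrays of high Gapdh ratio it was also 3 (beside 22.1%). The part of any of these tissue changes in the values of the 10 genes was not tested. With the luminal mean subtracted on each array 10 of 11 probe sets were called lower after 14 days, but that subtraction moved the median of all tested probe sets to -0.32 and called 46.5% of them lower, so the count says little by itself.

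Promoter sequence from RefSeq (GRCm38.p6) was found for 8 of the 10 genes, with 12 start sites. Both half-site spellings, AGAACA and its reverse complement TGTTCT, were sought in the 250 bases before each start, and 3 start sites of 3 genes held 1, where 16.1% of 32851 windows of this length in the same table did. The 30 bases around each are shown because they place the motif beside genes of unlike response, with capitals on the motif.
Pbsn (chrX:77853578-77853607, minus strand, bases -95 to -90): caactgggatgcAGAACActgctcacgcca
Sbp (chr17:23941842-23941871, plus strand, bases -64 to -59 of 1 of its 3 starts): cattgttttaaaTGTTCTcaaagccttggg
Pigr (chr1:130826558-130826587, plus strand, bases -114 to -109): caagtacaggggAGAACAaaaggagccagc
Pbsn and Sbp were called lower after 14 days of castration and Pigr was not. The other 5 genes with a sequence, Azgp1, Fcgbp, Agr2, Ang and Mme, had no match in their windows. These 5 were also called lower after 14 days, so a fall was called with and without a match. The full palindrome, both half-sites facing each other 3 bases apart, occurred in none of the 8 and in 3 of all windows. A match in these letters is a description of the sequence and does not show binding.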

How the data were processed

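Biotin-labelled RNA of 20 whole prostates was measured on 20 MG-U74A arrays. The deposited values are intensities, 1 linear signal per probe set, made by the authors with MAS5 5.0, per the submitters' processing notes; scanner settings are not given in the sources used here. Of 12488 rows, 66 controls were left out; the platform annotation gave 10833 of the other 12422 a single gene symbol, 396 more than 1 and 1193 no symbol, and all 13 probe sets of the 10 genes had the RefSeq symbol of their Entrez ID. Samples were grouped from their labels and numbered 1 to 5 in accession order, so the numbers pair no mice.

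Log2(signal + 12.7), the 10th percentile of all values being added, was fitted in 1 model of 4 groups (limma 3.58.1, R 4.3.3; lmFit, contrasts.fit and eBayes; two-sided; Benjamini-Hochberg adjustment over 6911 probe sets per comparison, threshold 0.05). The midpoint tests compare a group with the mean of the sham and 14-day groups. The procedure was tested on simulated data. Every probe set of the 10 genes is given; of other lists, called genes with the largest changes after 14 days are named, each by its probe set of highest mean, and the 3 genes of highest correlation per member; Herpud1, Odc1, Creb3l1, Foxa1, Mmp7 and Defb1 were named after their values were seen. The members and lists were chosen with earlier results of these data known, and so give no independent support. Alternatives were 2 pseudocounts, 2 normalizations, 2 filters, 2 models, fewer groups, leaving out 4 arrays of high Gapdh ratio, subtracting luminal markers and leaving out each array. The number of arrays limits the precision.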

Additional observations from a re-analysis of the deposited data

Results flagged for a closer look

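In 52 groups of 5 signals (13 probe sets in 4 groups), 6 held 1 mouse whose gap to the nearest of the others was large for the range of its group (Dixon's criterion at 95%), where chance gives about 5%. Pbsn had such a mouse in each of 2 groups, with 7813.9 in testosterone replicate 1 (the others 10106.3 to 10969.2) and 14179.6 in sham replicate 1 (the others 17136.7 to 18101). Fcgbp had 10699.7 in testosterone replicate 1 by its second probe set (the others 12962 to 13616.5). Sbp had 8477.8 in replicate 5 castrated for 3 days (the others 12964.5 to 14628.8). The other 2 were in Agr2 probe sets below the filter, with 32.1 in replicate 4 castrated for 3 days (in the one averaging 49.2, the others 61.7 to 68.5) and 9.1 in sham replicate 2 (in the one averaging 3.19, the others 0.8 to 1.6).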

How the results depend on the processing

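Counts of called member probe sets stayed within 1.5 times in all 280 values with 1 array left out and in 153 of 154 under the 11 other settings. The exception was the number higher in the testosterone group than in sham, which was 2 and not 1 once the 4 arrays of high Gapdh ratio were left out, with Mme added. Log2 changes of single probe sets kept their call in 1524 of 1540 values with 1 array left out and in 825 of 847 under other settings, and no called change turned its direction. Centring arrays on their medians turned the split of all calls in the testosterone group against sham from 1623 higher and 2041 lower to 2025 higher and 1206 lower. The list counts under centring, quantile normalization and without the 4 arrays were computed after the values were seen. No paired analysis was possible because the labels give no replicate numbers or pairs.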
